A study of Mus musculus with 12 samples.

Results

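The genes described here are 10 intracellular relays and brakes of cytokine signalling: the transcription factors Stat3, Stat4, Stat5a, Stat5b and Stat6, the inhibitors Socs1, Socs2, Socs3 and Cish, and the kinase gene Pim1. They were taken by symbol from the deposited gene tables and read by Ensembl identifier, and each matched 1 of 55414 gene records. RNA was sequenced from splenic CD4+ T cells, purified by negative selection, of 18-week-old wild-type male BALB/c mice. The LIP group had ligature-induced periodontitis, in which a silk thread is tied around a molar, and the mice of the CTL group were anesthetized without a ligature. Cells were collected uncultured (day 0) or after 2 days with IL-2 at 10 ng/mL, anti-TCRβ at 1 μg/mL and anti-CD28 at 1 μg/mL (day 2), with 3 libraries in each of the 4 groups. These concentrations are those of the labels. The study's methods give other concentrations for IL-2 and anti-TCRβ, and in 4 of the day 2 libraries the antibody is written as anti-CD29 (CTL 93, LIP 96) or anti-CD30 (CTL 97, LIP 97) in the treatment label. Libraries are named by group and by the number in their label. No label ties a number to 1 animal or to a pool, so the p-values measure only the spread between these libraries.

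Cytokines such as IL-2, IL-4, IL-6, IL-7 and IL-12 bind receptors that carry Janus kinases (JAKs), which phosphorylate STAT proteins so that these pair, enter the nucleus and bind DNA at TTC and GAA half-sites. In helper T cells, IL-2 and IL-7 act mainly through STAT5A and STAT5B, IL-6 and IL-21 through STAT3, IL-12 through STAT4 and IL-4 through STAT6. The same STATs induce the SOCS genes and Cish, whose products shut the receptor complex off again, and Pim1, a kinase that promotes survival and growth.

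The promoters of Cish and Socs3 are shown because they alone among these genes held the STAT motif TTCNNNGAA, which reads the same on both strands. They run from 250 bases before to 50 after a RefSeq start site and were placed on GRCm39 by exact match, 5′ to 3′ on the gene's strand, with the motif in capitals. The Cish window lies at chr9:107173608-107173907 (+) and the Socs3 window at chr11:117860143-117860442 (-).
Cish: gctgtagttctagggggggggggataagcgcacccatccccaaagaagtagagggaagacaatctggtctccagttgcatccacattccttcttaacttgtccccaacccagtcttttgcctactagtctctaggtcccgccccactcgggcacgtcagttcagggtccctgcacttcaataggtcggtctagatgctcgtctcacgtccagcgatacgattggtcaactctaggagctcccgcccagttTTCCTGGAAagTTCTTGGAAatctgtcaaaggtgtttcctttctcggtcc
Socs3: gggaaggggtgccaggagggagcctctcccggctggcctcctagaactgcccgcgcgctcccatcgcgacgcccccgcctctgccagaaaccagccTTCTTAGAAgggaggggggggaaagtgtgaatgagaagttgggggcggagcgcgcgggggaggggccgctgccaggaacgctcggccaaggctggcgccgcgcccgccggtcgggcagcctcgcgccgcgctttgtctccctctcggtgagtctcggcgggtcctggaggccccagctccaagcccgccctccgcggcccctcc
Cish held 2 copies, TTCCTGGAA at bases 251 to 259 of the window and TTCTTGGAA at bases 262 to 270. Socs3 held 1 copy, TTCTTAGAA, at bases 97 to 105. The RefSeq table held promoters for 9 of the 10 genes (13 windows in all), and Socs2 had none there. Among 32851 mouse promoters of the same length in that table, 8.3% had at least 1 copy and 0.457% had 2 or more. The motif with a spacer of 1 more base, which STAT6 also binds, was in 0 of the 9 genes and in 6.95% of all promoters.

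All 10 genes are protein-coding. Stat5b (chr11:100671556-100741589), Stat5a (chr11:100750177-100776065) and Stat3 (chr11:100775924-100830450) are neighbours on chromosome 11 of GRCm39. Stat5a and Stat5b stand 8587 bases apart, and Stat5a overlaps Stat3, on the opposite strand, by 142 bases. Stat4 lies on chromosome 1 (chr1:52026307-52151423). Stat6 (chr10:127477821-127496862) overlaps exons of Nab2, a gene of the opposite strand with 234 to 1089 counts per library, and the other genes over exons of the 10 that had a row in the count table (Stat3 over Stat5a aside) had at most 65 counts. Socs3 (chr11:117856905-117860898) is also on chromosome 11. Socs1 (chr16:10600104-10603875), Socs2 (chr10:95219523-95253929), Cish (chr9:107173225-107179983) and Pim1 (chr17:29709581-29715086) stand elsewhere. The library kit keeps the strand, but whether counting used it is not given in the sources used here. Stat5a and Stat5b are close paralogs: 15.6% of the 50-base windows of the canonical Stat5a transcript also occur in an annotated transcript of Stat5b. How their reads were shared out between them is therefore uncertain.

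Totals per library ranged from 6249018 to 7845676 counts on day 0 and from 8691699 to 12866718 on day 2, and no member had fewer than 97 counts in any library. All 10 genes passed the filter on low counts in every comparison. The summed CPM of 10 CD4 T cell markers lay between 2814 and 4931 in the 12 libraries. CTL 94 of day 0 lay among the LIP libraries on the first principal component of its day (13.4, against 7.78 to 18.4 for LIP and -37 and -18.6 for the other CTL libraries). On day 2, LIP 90 lay at -8.11, far from LIP 96 (44.9) and LIP 97 (39.4). Results that rest on CTL 94 or LIP 90 are therefore given with and without them.

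Levels are given as CPM, the count of a gene divided by the total of its library scaled by TMM (trimmed mean of M-values) and brought to a common total, so that libraries can be compared. To compare genes, CPM was divided by the exon length of the canonical transcript in kilobases, and group values are means ± SD of 3 libraries. In CTL cells of day 0, Stat3 was the highest of the 10 at 133 ± 5.6 CPM per kilobase, followed by Stat6 (56.7 ± 6.0), Stat5b (39.7 ± 0.9), Stat5a (35.6 ± 2.3) and Pim1 (23.1 ± 1.7), and the ranges of neighbours in this order did not overlap. Cish (19.4 ± 6.3) overlapped both Socs3 (19.6 ± 2.2) before it and Stat4 (14.9 ± 1.3) after it, and Socs1 (10.0 ± 2.9) and Socs2 (6.6 ± 1.8) came last and overlapped each other. After 2 days of stimulation, Cish had moved from the seventh to the second place in the CTL group, at 104 ± 11.7 CPM per kilobase, next to Stat5a at 96.6 ± 5.2, with which its range overlapped. Stat3 stayed first (169 ± 11.7), and Stat5b moved from the third to the sixth place. The order in the LIP group of day 2 was led by the same 3 genes, Stat3 (152 ± 15.8), Cish (116 ± 18.7) and Stat5a (87.2 ± 9.8), with Pim1 next at 70.8 ± 19.7. With all annotated exons as the length, Pim1 and Socs3 stood before Stat5a on day 0 in the LIP group, so the middle of the order depends on the transcript chosen.

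**Figure D1:**
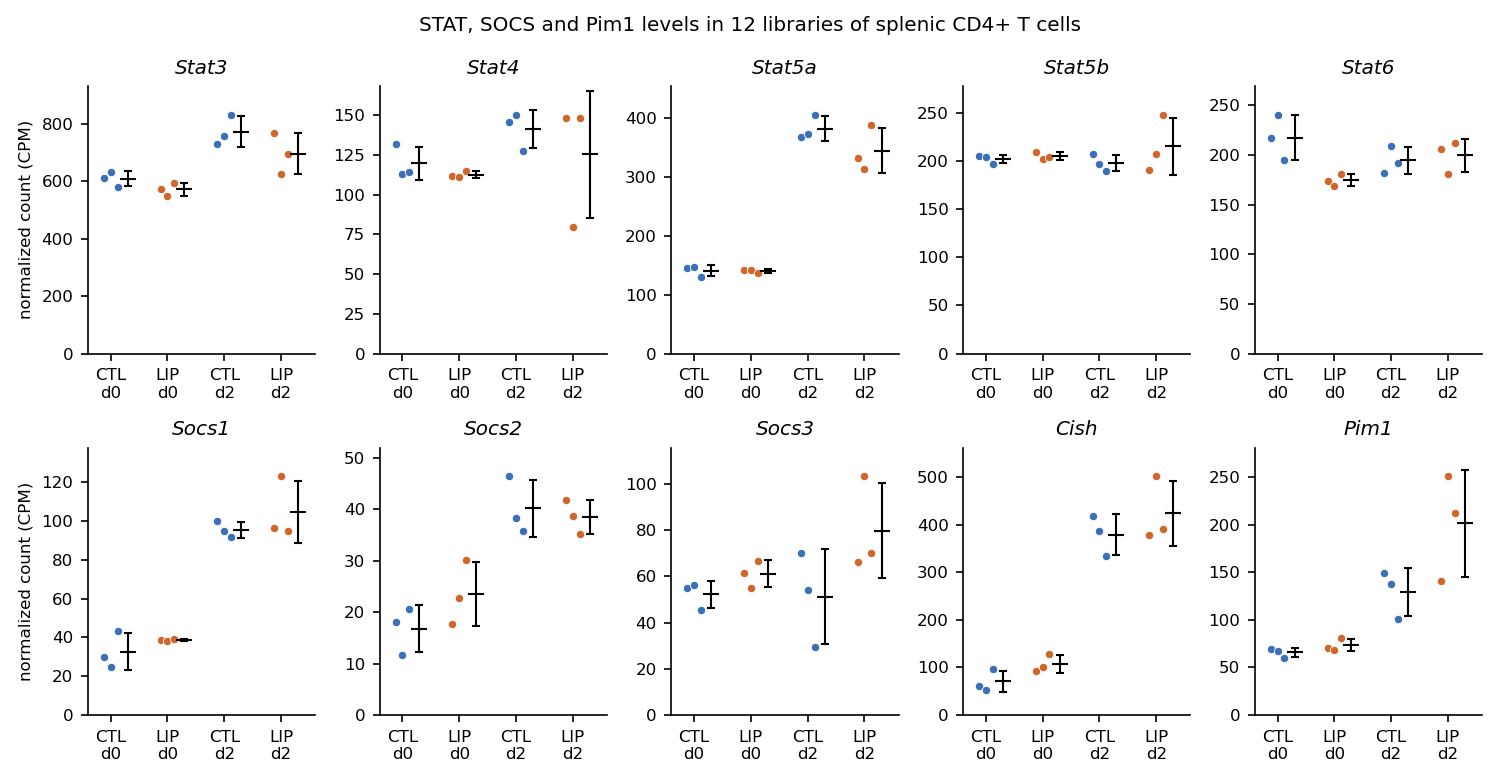
Normalised read counts (CPM, linear axes that start at 0) of the 10 genes in each library, for CTL and LIP on day 0 (d0) and day 2 (d2). Points are libraries and bars are the mean ± SD of 3; Stat5a, Socs1, Cish and Pim1 stand higher on day 2 in both groups, and Stat5b does not.

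The comparison of day 2 with day 0 asked how these genes differed after 2 days of stimulated culture within each group. No cells were cultured without stimulation, so effects of stimulation, culture and time cannot be told apart. A gene was called where its p from edgeR's quasi-likelihood test, adjusted by Benjamini and Hochberg's procedure over all genes tested, was under 0.05, and intervals are 95% intervals. The comparison called 6 of the 10 genes higher in the CTL group (Stat3, Stat5a, Socs1, Socs2, Cish and Pim1) and the same 6 in the LIP group, and 0 lower in either. Over 15475 genes tested, 69% were called in the CTL group, 35.3% higher, and 71.8% in the LIP group, 36.6% higher, so a call as such was common in this comparison. In each group, the same 6 genes had ranges that did not overlap between days, as had 73.3% (CTL) and 74.8% (LIP) of all genes tested. The median log2 fold change of the 10 genes was 0.66 in CTL and 0.55 in LIP, beside -0.02 and -0.0028 over all genes tested. Without LIP 90 the count in the LIP group was 5, without LIP 93 of day 0 it was also 5 (both lost Stat3), and without LIP 96 it was 8 (Stat4 and Stat6 joined). Leaving out any library of the CTL group kept the count at 6.

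Among the inhibitors, Cish, which encodes an SH2 protein that STAT5 induces and that damps the IL-2 receptor, had 61.9, 53.3 and 96.6 CPM in CTL 88, 89 and 94 of day 0 and 417, 387 and 333 CPM in CTL 92, 93 and 97 of day 2. In the LIP group it had 91.9, 102 and 129 CPM in libraries 92, 93 and 94 of day 0 and 379, 502 and 390.0 CPM in libraries 90, 96 and 97 of day 2. Every library of day 2 stood above every library of day 0 by a wide gap. Cish rose 5.37-fold in CTL (95% interval 3.95 to 7.3, adjusted p = 2.35e-07) and 3.94-fold in LIP (2.92 to 5.33, adjusted p = 1.16e-06), the largest fold change of the 10 genes in each group, and its log2 fold change stood above those of 92.6% and 90.6% of all genes tested.

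Socs1, whose product blocks JAK kinases directly and restrains interferon-γ and IL-2 signalling, had 30.1, 24.6 and 43.2 CPM in CTL 88, 89 and 94 and 100.1, 94.7 and 91.9 CPM in CTL 92, 93 and 97 of day 2. It rose 2.93-fold in CTL (2.28 to 3.77, adjusted p = 2.41e-06) and 2.71-fold in LIP (2.11 to 3.47, adjusted p = 4.03e-06), where the libraries went from between 38.3 and 39 CPM to between 94.8 and 123 CPM. Socs2, best known as a brake on growth hormone signalling, was the least abundant of the 10 at 11.7 to 20.7 CPM in CTL and 17.8 to 30.1 CPM in LIP on day 0. On day 2 it had 35.7 to 46.4 CPM in CTL and 35.1 to 41.8 CPM in LIP, above every library of day 0. It rose 2.4-fold in CTL (1.75 to 3.28, adjusted p = 0.000122) and 1.64-fold in LIP (1.21 to 2.23, adjusted p = 0.00673). The call in LIP was lost when libraries were scaled by upper quartile (log2 fold change 0.39, adjusted p = 0.0983) or by total counts alone (0.35, adjusted p = 0.148).

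Socs3, which binds the gp130 receptor chain and stops IL-6 signalling to STAT3, was the one inhibitor with no call. Its libraries spread widely on day 2: 70.4, 54.1 and 29.3 CPM in CTL 92, 93 and 97, and 66.1, 103 and 70.1 CPM in LIP 90, 96 and 97, against 45.7 to 56.1 CPM in CTL and 55 to 66.7 CPM in LIP on day 0. The days overlapped in both groups, and the log2 fold changes were -0.03 in CTL (95% interval -0.57 to 0.51, adjusted p = 0.927) and 0.39 in LIP (-0.14 to 0.92, adjusted p = 0.17). The intervals run from 0.676-fold to 1.42-fold in CTL and from 0.906-fold to 1.89-fold in LIP. With no filter on low counts, Socs3 was called higher in LIP (0.43, adjusted p = 0.0166), in a fit whose standard error for it was 0.15, against 0.25 with the filter, for a reason that was not tested.

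Pim1, the serine/threonine kinase gene, had 69.5, 67.4 and 60.4 CPM in CTL 88, 89 and 94 of day 0 and 149, 138 and 101 CPM in CTL 92, 93 and 97 of day 2, a 1.97-fold rise (1.48 to 2.61, adjusted p = 0.000409). In LIP it went from 70.3, 68.8 and 80.6 CPM to 141, 251 and 212 CPM, a 2.75-fold rise (2.07 to 3.64, adjusted p = 1.14e-05). All libraries of day 2 were above all of day 0, and LIP 96 and LIP 97 stood above every CTL library of day 2.

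Of the 5 STAT genes among the 10, Stat5a changed most. It had 145, 147 and 130.1 CPM in CTL 88, 89 and 94 of day 0 and 368, 373 and 406 CPM in CTL 92, 93 and 97 of day 2, and rose 2.72-fold (2.34 to 3.15, adjusted p = 3.34e-08). In LIP it rose 2.47-fold (2.13 to 2.86, adjusted p = 7.44e-08), from between 136 and 142 CPM to 332, 314 and 389 CPM in LIP 90, 96 and 97. The days did not come near each other in either group. Its paralog Stat5b lay between 189.6 and 248 CPM in all 12 libraries, with log2 fold changes of -0.03 in CTL (-0.24 to 0.18, adjusted p = 0.786) and 0.07 in LIP (-0.14 to 0.28, adjusted p = 0.539).

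Stat5a accordingly took a larger share of the summed Stat5a and Stat5b CPM on day 2. It made up 41.0 ± 1.1% in CTL and 40.5 ± 0.68% in LIP on day 0, and 65.9 ± 2.1% in CTL and 61.6 ± 1.7% in LIP on day 2. The highest library of day 0 had 41.7% and the lowest of day 2 had 60.3%, and on day 2 the LIP libraries (60.3% to 63.5%) all lay under those of CTL (64.0% to 68.2%). This last order of 3 against 3 libraries was seen after the values were known and was not tested. The sum itself does not depend on how reads were divided between the paralogs, and it rose by 0.76 on the log2 scale in CTL (adjusted p = 8.65e-06) and by 0.70 in LIP (adjusted p = 1.65e-05).

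**Figure D2:**
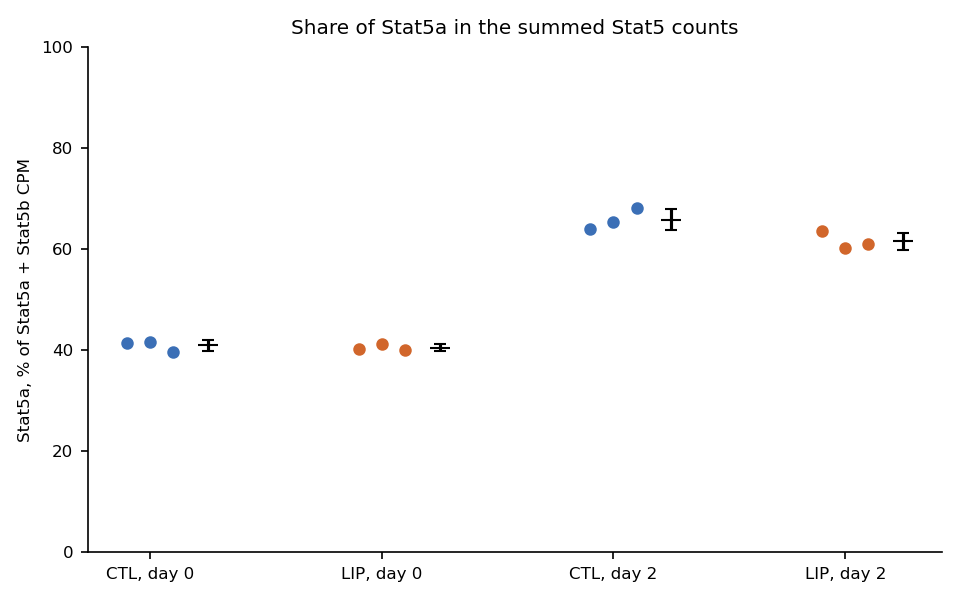
Share of Stat5a in the summed CPM of Stat5a and Stat5b, in percent, for each library (points) with the mean ± SD of the 3 libraries of a group (bars). All day 0 libraries lie at or below 41.7% and all day 2 libraries at or above 60.3%.

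Stat3, the most abundant of the 10, changed little. It had 611, 632 and 581 CPM in CTL 88, 89 and 94 of day 0 and 728, 757 and 831 CPM in CTL 92, 93 and 97 of day 2 (1.27-fold, 1.1 to 1.47, adjusted p = 0.00664). In LIP it had 547 to 593 CPM on day 0 and 769, 624 and 693 CPM in LIP 90, 96 and 97 of day 2 (1.22-fold, 1.05 to 1.41, adjusted p = 0.0189). Both groups were apart between days, but the size of the change was near the choice of scaling. Upper-quartile scaling moved the median of all genes by -0.29 (CTL) and -0.32 (LIP), and total counts alone by -0.19 and -0.36. Under these, the log2 fold change of Stat3 was 0.06 and 0.16 in CTL and -0.04 and -0.08 in LIP, with no call, and of all called genes 38.4% and 42.4% were higher in CTL, and 37.7% and 36.2% in LIP, against 51.1% and 51.0% with TMM.

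The other 2 STAT genes gave no call. Stat4, which IL-12 activates, had 111 to 132 CPM in the 6 libraries of day 0, 128 to 150.5 CPM in CTL on day 2, and 149, 79.5 and 148 CPM in LIP 90, 96 and 97. LIP 96 stood below every other library of either day, and without it the log2 fold change in LIP was 0.41 (adjusted p = 0.00395), against 0.15 (adjusted p = 0.46) with it. Stat6, which IL-4 activates, had log2 fold changes of -0.16 in CTL (adjusted p = 0.171) and 0.19 in LIP (adjusted p = 0.105). Upper-quartile scaling and total counts made Stat6 lower with a call in CTL (-0.45 and -0.35) and turned the sign of Stat4, Stat5b and Stat6 in LIP. Stat5b was then called lower in LIP (-0.25, adjusted p = 0.0468, and -0.29, adjusted p = 0.0204) and, with upper-quartile scaling, in CTL (-0.32, adjusted p = 0.0150).

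**Figure D3:**
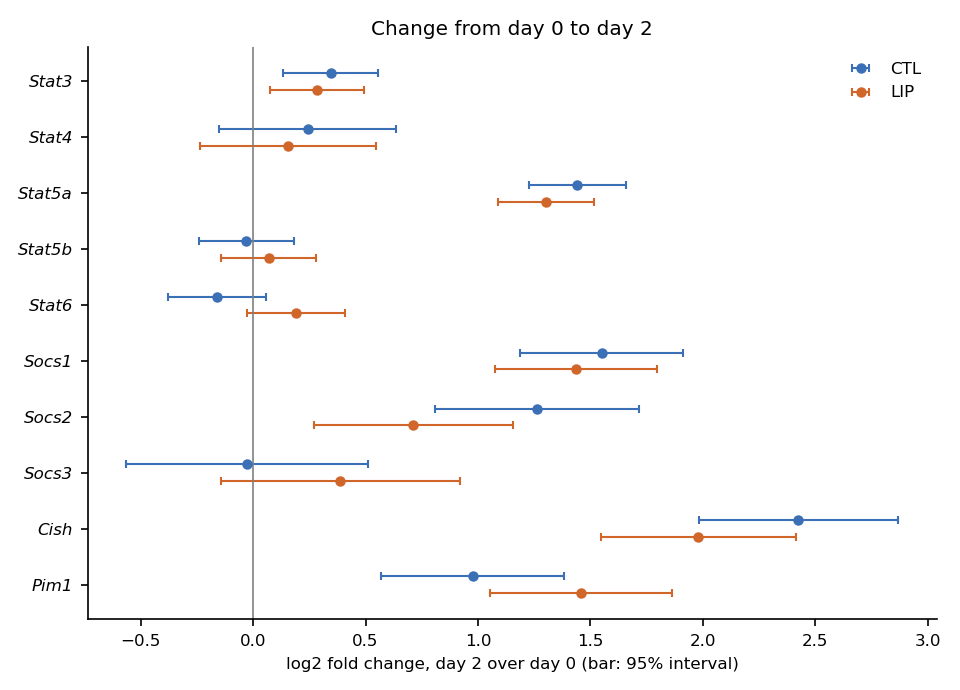
Log2 fold change from day 0 to day 2 of the 10 genes in CTL and LIP, with 95% intervals as bars. Cish lies furthest to the right in both groups, and the intervals of Stat4, Stat5b, Stat6 and Socs3 include 0.

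The comparison of LIP with CTL on day 0 asked what periodontitis changed in cells straight from the spleen. It called 0 of the 10 genes, against 0.427% of 14064 genes tested (60 genes), by edgeR's quasi-likelihood test. At an unadjusted p under 0.05 there were 4 of the 10 (Stat6 lower and Cish, Socs2 and Socs3 higher), against 13.9% of all genes, and DESeq2 called 206 genes and 1 of the 10, Stat6 (adjusted p = 0.0322). The 4 genes Socs1, Socs2, Socs3 and Cish all had log2 fold changes above 0, as had 51.9% of all genes tested. Their median was 0.38, beside 0.0088 over all genes tested. The SOCS genes outside the 10 went both ways, from -0.12 to 0.23. The 5 STAT genes had a median of -0.08.

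Stat6 had 217, 241 and 195 CPM in CTL 88, 89 and 94 and 174, 169 and 181 CPM in LIP 92, 93 and 94. The 3 LIP libraries all lay under the lowest of CTL. No other member had groups that did not overlap, against 19.1% of all genes. The log2 fold change was -0.31 with a 95% interval of -0.49 to -0.13 (adjusted p = 0.138), and over the alternatives the adjusted p ranged from 0.0114 to 0.485. Reads of Nab2, which overlaps Stat6 exons, cannot be told apart from those of Stat6 if strand was not used.

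Cish had 61.9 and 53.3 CPM in CTL 88 and 89, whereas CTL 94, at 96.6 CPM, stood within the LIP range of 91.9 to 129 CPM. The log2 fold change was 0.61 with a 95% interval of 0.20 to 1.02 (adjusted p = 0.185). Socs1 showed the same arrangement, with CTL 94 (43.2 CPM) above all 3 LIP libraries (38.3 to 39 CPM) and CTL 88 and 89 below them, and a log2 fold change of 0.25 (-0.11 to 0.62, adjusted p = 0.529). Without CTL 94, 3 of the 10 genes passed: Cish at 0.91 (adjusted p = 0.00135), Socs1 at 0.51 (adjusted p = 0.0227) and Stat6 at -0.39 (adjusted p = 0.0114), while 658 of 14343 genes (4.59%) passed in all. With no filter on low counts, 645 genes and 3 of the 10 passed, Cish, Socs2 and Stat6, but that fit gave smaller standard errors for a reason that was not tested (0.0899 for Cish, against 0.19 with the filter).

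Socs2 had 18.1, 11.7 and 20.7 CPM in CTL and 17.8, 22.7 and 30.1 CPM in LIP (log2 fold change 0.50, 0.02 to 0.98, adjusted p = 0.346), and Socs3 was at 0.23 (0.01 to 0.45, adjusted p = 0.348). Both overlapped between the groups. Pim1, Stat3, Stat4, Stat5a and Stat5b lay between -0.08 and 0.16, and the 95% intervals of these 5 genes stayed within -0.25 and 0.36.

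The summed CPM of other marker lists overlapped between the groups on day 0, except that of regulatory T cell markers. The summed CPM of 6 regulatory T cell markers was 328 to 468 in CTL and 480 to 515 in LIP, and CTL 94 stood in the middle of its group. Of these markers, 0 were called, and Foxp3, their defining gene, had 47.4 to 65.5 CPM in CTL and 58.0 to 72.8 CPM in LIP. The summed CPM of 16 immediate early genes was 1193, 1999 and 2134 in CTL, the lowest value being that of CTL 94, and 1011 to 1224 in LIP, and 3 of the 13 tested were called, all lower in LIP. Without CTL 94, 9 of these 13 were called, all lower, and 1 of the 6 regulatory T cell markers, Ikzf2 (0.58, adjusted p = 0.0293), beside 4.59% of all genes. Of 10 cytotoxic or NK cell markers, 8 were tested and 0 were called, 7 of them had log2 fold changes above 0 (median 0.60), and their summed CPM was 75.96 to 92.96 in CTL and 76.75 to 93.26 in LIP. The 1 marker below 0 was Prf1, the most abundant of them, at 36.2 to 52.6 CPM in CTL and 26.5 to 31.3 CPM in LIP (-0.66, adjusted p = 0.0640, and called lower without CTL 94, at -0.81, adjusted p = 0.000721). Ncr1 and Klrb1c, which mark NK cells, were at or below 4.94 CPM, lowest in CTL 89 and highest in LIP 94, as were Cish and Socs2. The summed CPM of 12 pancreatic acinar cell markers was 0.602 to 1.18 in CTL and 0.689, 6.55 and 24.1 in LIP. Their part in the values of Cish, the SOCS genes and Stat6 was not tested. In bulk RNA, a change in the number of cells of a type and a change in RNA per cell cannot be told apart.

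After stimulation, 0 of the 10 genes differed between LIP and CTL, and 0% of 14041 genes tested did by edgeR's quasi-likelihood test, whereas DESeq2 called 489 genes and 0 of the 10. At an unadjusted p under 0.05, 1 of the 10 (Pim1) and 16.5% of all genes were found, and 0 of the 10 had groups that did not overlap, against 21.5% of all genes. Pim1 had 149, 138 and 101 CPM in CTL 92, 93 and 97 and 141, 251 and 212 CPM in LIP 90, 96 and 97, so that LIP 90 stood inside the CTL range and the other LIP libraries above it. Its log2 fold change was 0.63 (95% interval 0.11 to 1.15, adjusted p = 0.232). Without LIP 90, Pim1 passed at 0.86 (adjusted p = 0.00941), among 2014 of 14453 genes (13.9%).

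Socs3 had the same log2 fold change, 0.63 (-0.06 to 1.31, adjusted p = 0.343) and leaving out any 1 library gave values from 0.35 to 0.93, none of them called. Of the 6 libraries, LIP 96 was the highest for Pim1, Socs3, Cish and Socs1 and the lowest for Stat3, Stat4, Stat5a and Stat6. Cish was at 0.15 on day 2 (-0.20 to 0.50, adjusted p = 0.669). Stat6 was at 0.03 (-0.25 to 0.30, adjusted p = 0.934).

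Markers of other cells and of regulatory T cells differed among these libraries. The summed CPM of 10 myeloid cell markers was 2.87 to 8.18 in CTL and 18.4 to 49.8 in LIP, of which Mpeg1 made up most, and Csf1r was at 0.114 to 0.634 CPM in CTL and 0.717 to 1.43 CPM in LIP, while Lyz2, Itgam and Adgre1 were each at or below 0.562 CPM in every day 2 library and S100a8 and S100a9 had 0 counts in all 12. B cell markers summed to 22.6 to 66.5 CPM in CTL and 22.2 to 75.3 in LIP, with log2 fold changes above 0 for 8 of the 8 tested (median 0.97, 0 called), and cytotoxic or NK cell markers to 22.5 to 30.1 CPM in CTL and 27.0 to 74.1 in LIP. The summed CPM of the 6 regulatory T cell markers was 1783 to 2438 in CTL and 2112 to 2311 in LIP, with log2 fold changes above 0 for 2 and below 0 for 4. Among the lower ones, Foxp3 had 35.9 to 42.3 CPM in CTL and 27.9 to 31.8 CPM in LIP, and Ikzf2 had 105.8 to 126 CPM in CTL and 77.4 to 93.6 CPM in LIP. Of the 6, 0 were called, beside 0% of all genes tested. Without LIP 90, 2 of the 6 were called, both lower in LIP, beside 13.9% of all genes. Their part in the values of Pim1 and Socs3 was not tested.

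**Figure D4:**
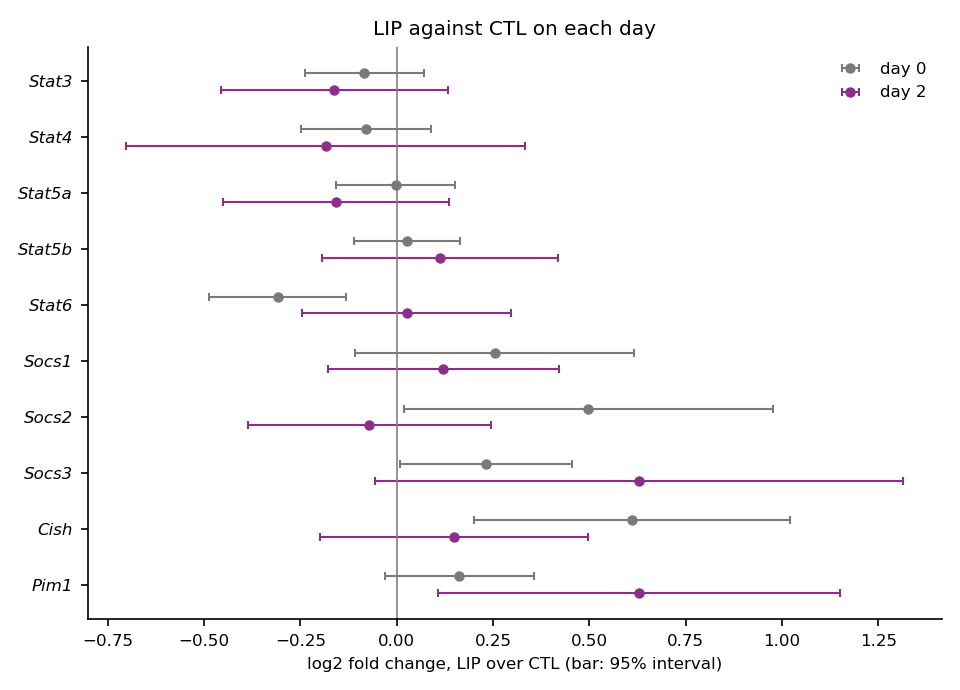
Log2 fold change of LIP over CTL for the 10 genes on day 0 and day 2, with 95% intervals as bars. On day 0 the intervals of Stat6 (below 0), Socs2, Socs3 and Cish (above 0) exclude 0, and on day 2 that of Pim1 does; none of these passed after adjustment over all genes.

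Whether the change from day 0 to day 2 differed between the 2 groups was tested as the interaction of group and day. It called 0 of the 10 genes against 0.0517% of 15475 (8 genes), and DESeq2 called 531 genes and 0 of the 10. At an unadjusted p under 0.05, 1 of the 10 (Stat6) and 15.9% of all genes were found. The difference was 0.35 for Stat6 (0.04 to 0.66, adjusted p = 0.249), 0.48 for Pim1 (-0.09 to 1.05, adjusted p = 0.407), -0.55 for Socs2 (-1.18 to 0.08, adjusted p = 0.393) and -0.45 for Cish (-1.04 to 0.15, adjusted p = 0.474). Without LIP 90, the difference for Pim1 passed at 0.69 (adjusted p = 0.0371), among 1596 of 15823 genes (10.1%).

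The rest of the pathway was counted in lists of genes with a known place in it. Some genes stand in more than 1 list, such as Il2ra, Osm, Lif and Il12rb2, so the counts of different lists are not separate. In CTL, 7 of 12 other JAK, STAT, SOCS and Pim genes were called higher on day 2 than on day 0, and 2 lower. In LIP, 7 were called higher and 3 lower. Jak2 rose from 144 to 893 CPM in CTL (log2 fold change 2.63, adjusted p = 1.72e-08), Jak3, the kinase of the common γ chain, by 1.08 (adjusted p = 2.19e-06) and Pim2 by 1.35 (adjusted p = 9.99e-07), while Jak1 fell by 1.25 (adjusted p = 1.19e-07). Of 16 listed cytokine genes, 11 passed the filter on low counts in the fit of all 12 libraries. In the fit of day 0, 4 passed. Genes that passed only through their day 2 counts could hardly do other than rise. With that limit, 10 of the 11 tested rose in CTL and 11 of 11 in LIP. Fitted medians were 4.36 and 4.94, or 4.02 and 4.02 when genes with 0 counts in all libraries of day 0 were set to a bound from 3 counts per library.

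Receptor genes went both ways, with 7 higher and 10 lower of 20 in CTL and 6 higher and 8 lower in LIP. Il2ra, the α chain that gives the IL-2 receptor its high affinity, rose from 82.4 to 1619 CPM in CTL (log2 fold change 4.30, adjusted p = 1.69e-10) and by 4.05 in LIP (adjusted p = 1.91e-10), and Il12rb2, the signalling chain for IL-12, rose by 4.19 and 4.88 (adjusted p = 2.46e-08 and 6.34e-09). Il7r fell by 3.21 in CTL (adjusted p = 1.83e-08) and Il6ra by 1.70 in LIP (adjusted p = 1.31e-08). Of 14 other inhibitors, 8 rose and 3 fell in CTL and 7 rose and 4 fell in LIP, Cblb, a ubiquitin ligase, by 1.57 and 1.53 upwards (adjusted p = 1.84e-07 and 2.1e-07).

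Of 24 tested genes described as STAT5 targets in T cells, 15 rose and 5 fell in CTL and 16 rose and 4 fell in LIP, with medians of 1.46 and 1.81. Tnfrsf4, the costimulatory receptor OX40, rose by 4.58 in CTL and 4.45 in LIP (adjusted p = 2.81e-10 and 2.98e-10). Of 17 targets of STAT3, STAT4 or STAT6, 11 rose and 4 fell in CTL, and 10 rose and 5 fell in LIP. Il18r1, which STAT4 is known to raise, fell from 123 to 5.06 CPM in CTL (adjusted p = 3.03e-09) and from 186 to 4.31 CPM in LIP (adjusted p = 1.13e-09), and Nfil3 rose by 5.15 and 5.67 (adjusted p = 8.71e-09 and 2.86e-09). Of 19 interferon targets, 8 rose and 6 fell in CTL, whereas 13 rose and 0 fell in LIP, and the difference between the groups was called for 0 of them, or for 8 (all with the larger log2 fold change in LIP) without LIP 90, when 10.1% of all genes were called. Apart from the cytokine list, 73.7% to 88.2% of the tested genes of a list were called in CTL and 68.4% to 88.2% in LIP. The cytokine list, with the limit of the filter given above, had 90.9% and 100%. Over all genes, 69% and 71.8% were called.

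**Figure D5:**
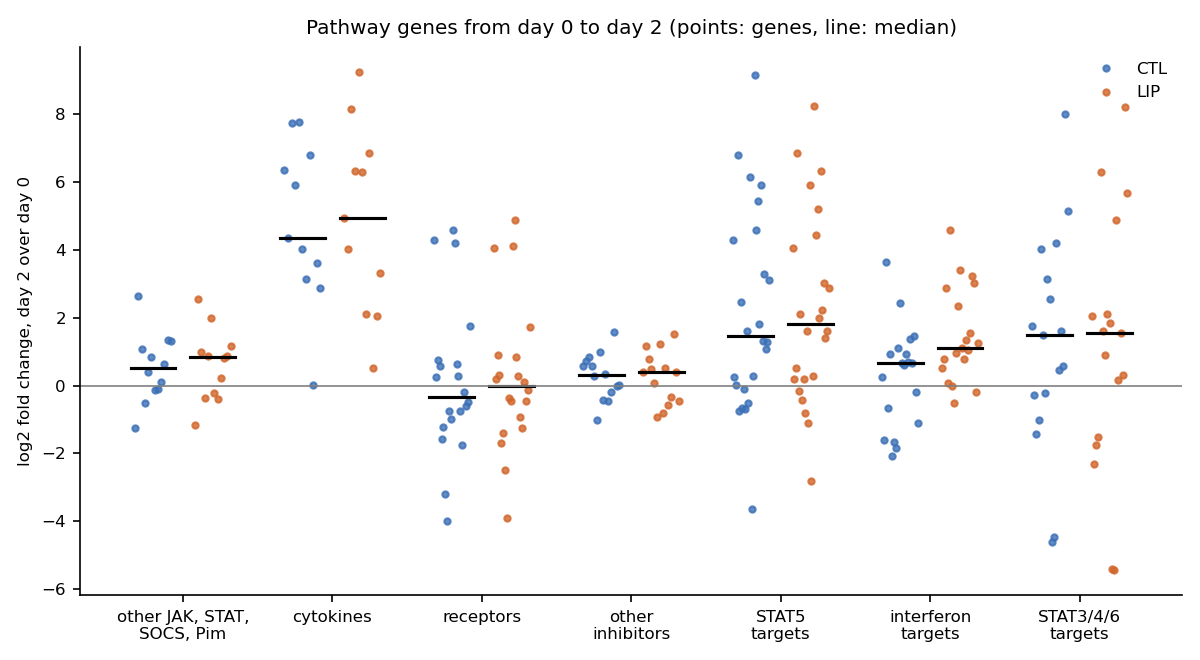
Log2 fold change from day 0 to day 2 of the tested genes of each pathway list in CTL and LIP; each point is a gene and each black line the median of the list. Cytokine genes lie highest, with fitted medians of 4.36 and 4.94 (4.02 and 4.02 with genes at 0 counts set to a bound). Of 16 listed cytokine genes, 4 passed the filter on low counts in the day 0 fit and 11 in the fit of both days. Their place is therefore partly set by the filter. The receptors spread on both sides of 0.

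Between LIP and CTL, 0 genes of these 7 lists were called on day 0 and 0 on day 2. Without LIP 90, the calls on day 2 were 2 of 12 other JAK, STAT, SOCS and Pim genes, 6 of 12 cytokines, 7 of 19 receptors, 1 of 14 other inhibitors, 6 of 24 STAT5 targets and 5 of 18 targets of STAT3, STAT4 or STAT6, beside 13.9% of all 14453 genes tested in that fit. On day 0, Il2ra was at 0.34 (adjusted p = 0.112), with every LIP library (101 to 107 CPM) above every CTL library (77.6 to 91.3 CPM). Of all genes tested on day 0, 19.1% had groups that did not overlap. Other listed genes were apart in the opposite direction, such as Jak1 (-0.22, adjusted p = 0.257) and Ifngr1 (-0.28, adjusted p = 0.246). Without CTL 94, the calls on day 0 were 2 of 12 other JAK, STAT, SOCS and Pim genes, 0 of 4 cytokines, 3 of 20 receptors, 3 of 14 other inhibitors, 5 of 21 STAT5 targets, 1 of 19 interferon targets and 4 of 16 targets of STAT3, STAT4 or STAT6, beside 4.59% of all 14343 genes. On day 2, 18 of the 19 interferon targets had log2 fold changes above 0, with a median of 0.81 beside -0.0058 over all genes tested. Isg15 was at 3.79 (adjusted p = 0.0568) and Usp18, which damps the interferon receptor, at 2.94 (adjusted p = 0.0894). Stat2, which type I interferon activates, was at 1.26 (adjusted p = 0.108), whereas the 5 STAT genes described above lay between -0.18 and 0.11. Without LIP 90, 13 of the 19 targets passed as higher and 1 as lower (13.9% of all genes passed), and Stat2 (1.37, adjusted p = 0.00555) passed too. Il2, the ligand that leads to STAT5, had 62.6 ± 6.8 CPM in CTL and 22.7 ± 20 CPM in LIP on day 2 (-1.47, adjusted p = 0.24), and without LIP 90 its value was -2.46 (adjusted p = 0.0023).

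The genes whose pattern over the 12 libraries was most like that of a member were found by the root mean square difference of log2 CPM, each gene centred on its own mean. For Stat3 this was Gcn1 (0.0537), for Stat4 Map4 (0.153), for Stat5a Cep128 (0.103), for Stat5b Mavs (0.0621) and for Stat6 Smcr8 (0.0724). For Socs1 it was Vmp1 (0.136), for Socs2 Asl (0.145), for Socs3 Trp53i11 (0.173), for Cish Fhl3 (0.166) and for Pim1 Glud1 (0.168). No member was among the 2 nearest genes of another member. The libraries share depth and the change between days, so these distances are descriptions only.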

How the data were processed

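RNA of 12 libraries was assigned to 4 groups by sample title. Per the methods and the submitters' processing notes, the authors checked reads with FastQC 0.11.9, trimmed them with Trimmomatic (the notes give version 0.38, the methods another), mapped them to GRCm39 (with HISAT2 in the methods, which the notes do not list) and deposited the expected count of each gene from RSEM 1.3.0 with Bowtie2, without normalization. The annotation release is not given in the sources used here. The authors' own CPM, fold changes and p-values, deposited for each day, were not used beyond gene symbols (15174 genes), and 2 columns of the day 2 table belong to no labelled sample and were not used. The 73267 values that were not whole were rounded. In R 4.3.3, edgeR 4.0.16 was run with filterByExpr, TMM and the quasi-likelihood test, on 6 libraries for LIP against CTL and on all 12 for day 2 against day 0 and the interaction. Adjusted p-values are Benjamini-Hochberg values over all genes tested, and a call is an adjusted p under 0.05. Confidence intervals are 95%. Positions came from GENCODE M39 and promoters from RefSeq (GRCm38.p6 table). Alternatives were RLE, upper-quartile and total-count scaling, DESeq2 1.42.0, 2 filters, 1 fit of all libraries, Stat5a and Stat5b summed, and leaving libraries out. The script was tested on simulated counts. Named genes were all 10 members, up to 4 genes with the smallest p per list and comparison, of which not every one is reported here, and the nearest genes. Values of 1 listed gene are not reported here. Any other gene is named as a marker, as an overlapping or neighbouring gene or, for Il2, as a list member chosen after its values were seen. Members and lists were chosen with earlier results of these data known.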

Additional observations from a re-analysis of the deposited data

How the results depend on the processing

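Stat5a, Socs1, Cish and Pim1 stayed called higher on day 2, in CTL and LIP, under every alternative in which they were fitted. No paired analysis was run, because the groups compared share at most 1 library number (94 on day 0, 97 on day 2) and no label ties a number to 1 animal. Values below are log2 fold changes or counts of calls, and the cause of their movement was not tested.

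With upper-quartile scaling, day 2 against day 0 gave -0.0437 for Stat4 in CTL, and -0.0374 for Stat3, -0.17 for Stat4, -0.25 for Stat5b and -0.13 for Stat6 in LIP. With total counts the last 4 were -0.0773, -0.21, -0.29 and -0.17. LIP against CTL on day 0 gave 0.00745 (upper quartile), 0.0669 (total counts) and 0.00498 (no filter) for Stat5a. With total counts, Stat6 was -0.0608 on day 2, the interaction of Stat5b was -0.0714, 1 gene was called on day 2 and 97 in the interaction. With no filter on low counts, 645 genes and 3 members were called on day 0, 662 genes and 1 member (Pim1) on day 2 and 815 genes in the interaction, and day 2 against day 0 in CTL gave 0.00688 for Stat5b and 0.0118 for Socs3. With at least 10 counts in every library, Stat5b in LIP was -0.0205 and 1 gene was called on day 2. With all 12 libraries in 1 fit, LIP against CTL called 12 genes on day 0 and 775 on day 2. DESeq2 called 206 genes and 1 member on day 0, 489 genes on day 2 and 531 in the interaction. Without CTL 94 and LIP 90 together, the interaction called 1682 genes and 1 member.

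Leaving out 1 library at a time, LIP against CTL called 13 to 658 genes and 0 to 3 members on day 0 and 0 to 2014 genes and 0 to 1 members on day 2, and the interaction called 1 to 1596 genes and 0 to 1 members. The signs of values that were not called turned for Stat5a on day 0 (-0.0588 to 0.0239), for Stat4 (-0.32 to 0.0723), Stat5b (-0.000878 to 0.22), Stat6 (-0.0197 to 0.11) and Socs2 (-0.15 to 0.0466) on day 2, for Stat5b (-0.0571 to 0.00323) and Socs3 (-0.32 to 0.26) in CTL and Stat5b in LIP (-0.0359 to 0.15) between days, and in the interaction for Stat3 (-0.14 to 0.016), Stat4 (-0.23 to 0.16), Stat5b (-0.00958 to 0.18) and Socs1 (-0.39 to 0.0611).

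Counts of members rest on 3 libraries a group, and changes of Stat3 and Stat6 from day 0 to day 2 are near the size of the scaling shift.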
